A study of Mus musculus with 68 samples.

Results

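Endoplasmic reticulum (ER)-associated degradation, or ERAD, was followed through 10 genes, listed by name for their place in the pathway: Herpud1, Syvn1, Sel1l, Edem1, Edem2, Edem3, Derl1, Derl2, Derl3 and Os9. The genes were chosen with earlier results of these data known, which limits every comparison with all genes below. All 10 were listed in the tables of the founder strains, which hold 13197 genes, and in those of the F1 crosses, which hold 12803. RNA was sequenced from mouse embryonic fibroblasts (MEFs) that had been given tunicamycin (TM) at 2 ug/ml for 4 h, or 0.1% DMSO for 4 h as the control. The fibroblasts came from 8 inbred founder strains, 129S1Sv/ImJ (129), A/J (A), C57BL/6J (B6), CAST/EiJ (CAST), NOD/ShiLtJ (NOD), NZO/H1LtJ (NZO), PWK/PhJ (PWK) and WSB/EiJ (WSB), and from 5 F1 crosses of B6 with 129, CAST, NOD, NZO or WSB, written x129, xCAST, xNOD, xNZO and xWSB. Each genotype had 2 or 3 control and 2 or 3 TM libraries, 40 from founders and 28 from crosses, none carrying an engineered allele.

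Misfolded glycoproteins in the ER have mannose removed from their N-linked glycans by the EDEM proteins, are then bound by lectins such as OS9, and are handed through SEL1L to the membrane ubiquitin ligase HRD1, the product of Syvn1. Derlins and HERPUD1 belong to the same membrane complex, through which substrates are moved to the cytosol for the p97 segregase and the proteasome. TM blocks the first step of N-linked glycosylation, which loads the ER with misfolded protein and switches on the unfolded protein response, a programme whose factors ATF6 and XBP1 bind ER stress response elements in promoters.

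Those elements were looked for in the promoters of the members, and the 3 promoters that held a complete one are printed here. They belong to the 3 members with the largest median changes after TM, and a link between element and change was not tested. RefSeq promoters (build GRCm38.p6, 250 bases before to 50 after each start site) were matched for 9 of the 10 members, Derl1 being the one without an entry. The search covered both strands for CCAAT and CCACG separated by 9 bases (ERSE), for ATTGG and CCACG separated by 1 base (ERSE-II), for TGACGTGG (UPRE), and for CCAAT and CCACG each alone, which both lie inside ERSE and ERSE-II, while the reverse strand of UPRE contains CCACG. Below are the 250 bases before the start site on the plus strand, 5′ to 3′, with the element in capitals, at chr8:94386179-94386428 for Herpud1, chr19:6046326-6046575 for Syvn1 and chr10:75893148-75893397 for Derl3.
Herpud1: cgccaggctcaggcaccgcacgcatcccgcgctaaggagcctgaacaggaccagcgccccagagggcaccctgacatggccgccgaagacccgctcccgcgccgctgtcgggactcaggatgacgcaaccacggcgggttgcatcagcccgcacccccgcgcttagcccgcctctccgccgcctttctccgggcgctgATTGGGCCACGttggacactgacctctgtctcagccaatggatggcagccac
Syvn1: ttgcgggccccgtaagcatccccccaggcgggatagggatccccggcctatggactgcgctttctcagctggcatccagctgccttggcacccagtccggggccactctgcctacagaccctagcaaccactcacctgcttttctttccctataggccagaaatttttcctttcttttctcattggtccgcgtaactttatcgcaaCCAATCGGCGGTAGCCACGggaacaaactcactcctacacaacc
Derl3: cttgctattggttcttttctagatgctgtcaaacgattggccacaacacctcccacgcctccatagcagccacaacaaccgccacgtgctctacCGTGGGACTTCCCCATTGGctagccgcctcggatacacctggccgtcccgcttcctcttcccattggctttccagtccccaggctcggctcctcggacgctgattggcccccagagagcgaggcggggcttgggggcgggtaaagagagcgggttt
In Herpud1 the capitals mark an ERSE-II that begins 52 bases before the start site. In Syvn1 they mark an ERSE that begins 44 bases before it, and in Derl3 an ERSE on the minus strand whose first base on the plus strand lies 156 bases before it. ERSE was present in 0.119% of all 32851 promoters in the table, ERSE-II in 0.0365% and UPRE, which no member held, in 0.676%. The short letters were common: CCACG stood in 32.8% of all promoters and in 9 of 9 members, CCAAT in 37.4% and in 8 of 9. A member was counted if any of its promoters matched, and Derl2 has 2 promoters, of which 1 held neither. A match describes letters in this window only.

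Values are reads per gene scaled by the authors for sequencing depth and library composition, here called scaled signal. They are not divided by gene length, so genes are compared with each other only per kb of exon. Reads on genes numbered 7091923 to 21530282 in 38 founder libraries and 6442976 to 29528457 in the 28 F1 libraries, and TM libraries were shallower than controls (medians 10730220 and 14072068 in founders, 12351069 and 15266698 in crosses). TM had acted in every genotype: Hspa5, the ER chaperone BiP, rose in 13 of 13 by log2 2.52 to 3.14, and Ddit3, the stress transcription factor CHOP, in 13 of 13 by 3.18 to 4.33. All 10 fibroblast markers were detected, summing to 16941 to 54704 in founder and 13112 to 34004 in F1 libraries, while marker sums were 4.22 to 69.2 for myeloid, 0.826 to 18.7 for endothelial and 1.00 to 78.4 for epithelial cells. The study describes female MEFs pooled from several embryos of a litter, yet 4 Y-linked genes summed to 24.6 to 177 in every founder genotype and 14.1 to 116 in 4 of the crosses, against 0.231 to 1.86 in xCAST. In bulk RNA, fewer cells expressing a gene and less RNA per cell cannot be told apart. Replicates were cells of a genotype treated in parallel in triplicate, and separate litters are not described, so p-values measure the spread between such treatments. Libraries that did not group with their condition had been removed by the authors.

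Within each genotype the question was which ERAD genes responded to TM. A gene was called induced when limma gave an adjusted p below 0.01 and the level was at least 1.5 fold higher, and lowered when the same held downwards. Of the 10 members, 2 were induced in 129 (background over all genes tested 0.315%), 3 in A (0.346%), 7 in B6 (5.04%), 6 in CAST (2.54%), 5 in NOD (1.45%), 2 in NZO (0.32%), 7 in PWK (6.36%) and 7 in WSB (2.85%). The crosses gave 6 in x129 (background 4.88%), 5 in xCAST (2.52%), 6 in xNOD (3.69%), 6 in xNZO (1.44%) and 2 in xWSB (0.185%). These sum to 64 of 130 pairs of gene and genotype. One member was lowered, Edem3 in WSB, where 4.2% of all genes were lowered. By size alone, whether or not the test was passed, 5 to 7 members per genotype were at least 1.5 fold higher after TM, against 5.23% to 11.7% of all genes. The median log2 change over the members was 0.56 to 1.08 by genotype, and over all genes −0.06 to 0.01.

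Herpud1 and Syvn1 were induced in all 13 genotypes, as were 0.111% of all genes (13 of 11664). Herpud1 lost a call only in 129 and NZO when 1 library was left out (129 TM 2, NZO control 2 or NZO control 3, adjusted p of limma up to 0.0223). Syvn1 lost calls more often: in 129 with edgeR (0.0111) or a mean value of at least 2 (0.0109), in A with the replicate block (0.0159), in 129, B6, NZO, WSB and xWSB without a trend in the prior variance (0.0103 to 0.0371), and in 129, A, NZO and xWSB with 1 of 12 libraries left out (0.0103 to 0.156). Over the founders alone, 0.159% of genes were induced in all 8 strains (19 of 11918), and over the crosses alone 0.185% in all 5 (22 of 11913). Sel1l and Edem1 were induced in 9 genotypes, Derl3 in 10, Derl1 in 6 and Derl2 in 4, while Edem2, Edem3 and Os9 were induced in none. For 6 members, Herpud1, Syvn1, Sel1l, Edem1, Derl1 and Derl3, every TM library was above every control library of its genotype in all 13 genotypes, which held for 2.84% of all genes (331 of 11664).

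**Figure D1:**
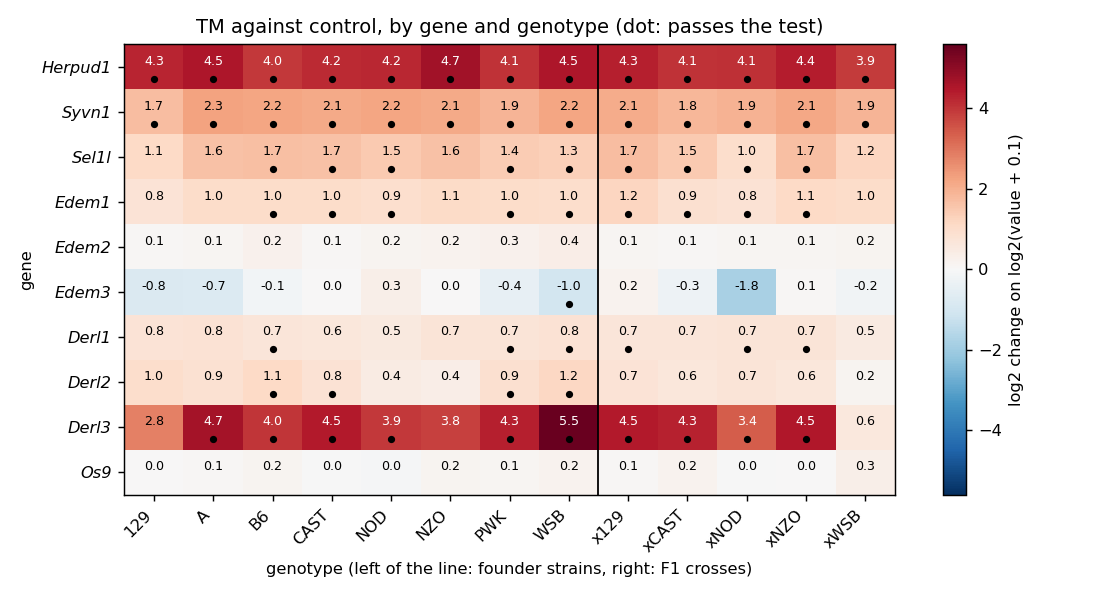
Log2 change of each of the 10 ERAD genes (vertical axis) with TM against control in each genotype (horizontal axis, 8 founder strains left of the line and 5 F1 crosses right of it), coloured and printed as log2, with a dot where the gene passed the test. Herpud1 and Derl3 have the largest values and Edem2 and Os9 stay near 0, while the xWSB value of Derl3, 0.59, stands apart from the 2.81 to 5.53 of the other genotypes.

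Herpud1 (ENSMUSG00000031770, GRCm38 chr8:94386438-94395377, plus strand) encodes an ER membrane protein with a ubiquitin-like domain that brings HRD1 and the derlins together. Its control level, in libraries of one strain at a time, was 46.4 and 48.8 in 129, 55.7, 64.8 and 62.2 in A, 74.6 and 75.5 in B6, 49.2 and 53.8 in CAST, 54.6 and 56.1 in NOD, 45.5 and 49.6 in NZO, 85.4, 75.2 and 80.9 in PWK, and 62.9 and 64.9 in WSB. After TM it was 974, 996 and 816 in 129, 1321, 1701 and 1226 in A, 1190 and 1147 in B6, 964 and 882 in CAST, 1044, 1092 and 976 in NOD, 1243, 1267 and 1197 in NZO, 1491, 1389 and 1159 in PWK, and 1560, 1531 and 1373 in WSB. No TM library came near any control library, and WSB, A and PWK lay at the upper end. In the crosses, Herpud1 controls ranged from 39.1 in an xNZO library to 60.7 in an xWSB library, and TM libraries from 718 in xWSB to 1004 in xCAST. The log2 change ran from 3.96 ± 0.07 (SE) in B6, a 15.5 fold rise, to 4.70 ± 0.11 in NZO, a 25.9 fold rise, among founders, and from 3.91 ± 0.19 in xWSB to 4.40 ± 0.10 in xNZO among crosses. The largest adjusted p of limma among the 13 genotypes was 0.000174.

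Syvn1 (ENSMUSG00000024807, chr19:6046576-6053712, plus strand), the HRD1 ligase itself, had control group means of 69.4 to 102 and TM group means of 302 to 473 in founders. The 2 groups never overlapped within a genotype. Its log2 change was the most even of the strongly induced members, from 1.73 ± 0.18 in 129 to 2.27 ± 0.19 in A, or 3.32 to 4.83 fold, and 1.84 to 2.14 in the crosses, with a largest adjusted p of 0.00891 by limma. Syvn1 overlaps the minus-strand gene Mrpl49 over 91 bases of its exons, 1.87% of their length, and counting is not stated to have used strand.

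Sel1l (ENSMUSG00000020964, chr12:91806043-91849157, minus strand), the adaptor that holds HRD1 in place and receives substrates, read 119 and 126 in 129 controls, 109, 137 and 134 in A, 156 and 145 in B6, 110 and 122 in CAST, 108 and 116 in NOD, 155 and 144 in NZO, 159, 174 and 177 in PWK, and 152 and 177 in WSB. The TM libraries read 208, 242 and 376 in 129, 515, 276 and 421 in A, 503 and 468 in B6, 357 and 373 in CAST, 313, 329 and 294 in NOD, 511, 522 and 369 in NZO, 416, 482 and 487 in PWK, and 423, 476 and 359 in WSB. Replicates lay close together in B6, CAST and NOD and far apart in 129 and A. Sel1l rose in B6 by log2 1.69 ± 0.07 (adjusted p of limma 3.91e-11) and in 8 other genotypes. The change was 1.12 ± 0.25 in 129 (adjusted p 0.0696), 1.64 ± 0.26 in A (0.0272), 1.63 ± 0.18 in NZO (0.0168) and 1.19 ± 0.23 in xWSB (0.0727), none of which passed the limma threshold although all TM libraries exceeded the controls. In the 4 crosses where Sel1l passed the test its log2 change was 0.99 ± 0.13 in xNOD, 1.47 ± 0.16 in xCAST, 1.69 ± 0.12 in xNZO and 1.75 ± 0.10 in x129.

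**Figure D2:**
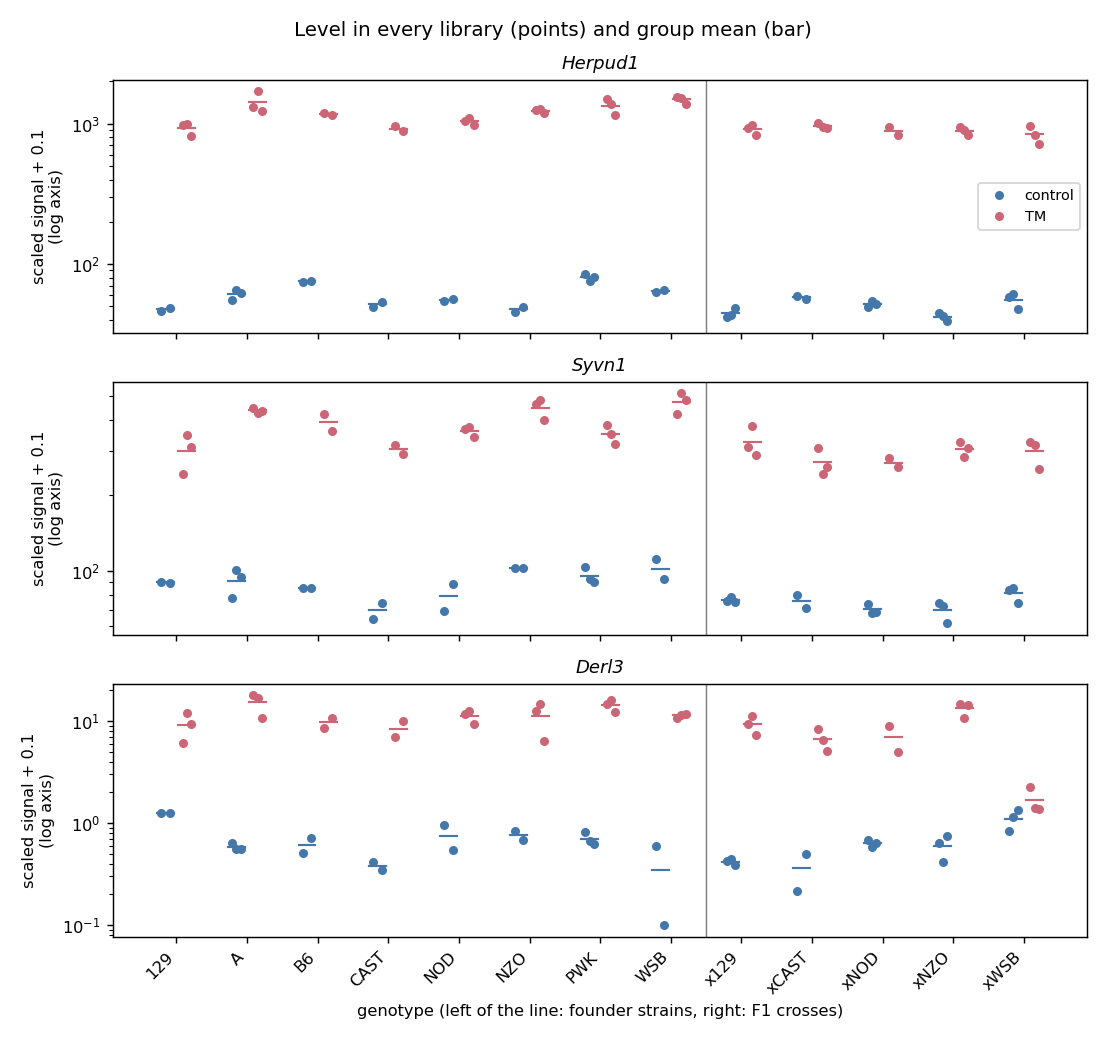
Scaled signal plus 0.1 (vertical log axis) of Herpud1, Syvn1 and Derl3 in every library (points, control and TM in different colours) with the group mean (bar), by genotype (founder strains left of the line, F1 crosses right of it). TM and control points of Herpud1 and Syvn1 are apart in every genotype, and those of Derl3 lie closest in xWSB (control 0.726 to 1.25, TM 1.28 to 2.14).

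The derlins, rhomboid-like proteins without protease activity that help to carry substrates through the membrane, differed from each other by both level and response. Derl1 (ENSMUSG00000022365, chr15:57869502-57892448, minus strand) changed modestly and evenly. Its founder control means were 114 to 134 and its TM means 175 to 234, with a log2 change of 0.54 ± 0.11 in NOD to 0.80 ± 0.14 in WSB, and 0.52 in xWSB to 0.73 in xNOD. Derl1 was induced in B6, PWK, WSB, x129, xNOD and xNZO, and in the other 7 genotypes the adjusted p of limma was 0.0116 to 0.264.

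Derl2 (ENSMUSG00000018442, chr11:71007164-71019841, minus strand), the closest relative of Derl3, rose in B6 by log2 1.10 ± 0.11 (2.14 fold), in CAST by 0.82 ± 0.15, in PWK by 0.88 ± 0.15 and in WSB by 1.17 ± 0.24. Its TM libraries were uneven in other strains: in A they read 29.4, 38.8 and 14.2 against controls of 9.88, 18.9 and 14.7, and in NZO 30.0, 27.7 and 10.6 against 16.7 and 15.3. Groups overlapped in those strains, and the log2 changes of 0.85 ± 0.40 and 0.37 ± 0.46 had adjusted p-values of 0.416 and 0.703 by limma. Derl2 shares 231 bases of exon, 2.87% of their length, with the plus-strand gene Mis12.

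Derl3 (ENSMUSG00000009092, chr10:75893413-75895941, plus strand) went from near the limit of detection to a clear signal. The founder controls were 1.15 and 1.15 in 129, 0.539, 0.456 and 0.454 in A, 0.414 and 0.608 in B6, 0.311 and 0.247 in CAST, 0.860 and 0.441 in NOD, 0.730 and 0.587 in NZO, 0.710, 0.563 and 0.530 in PWK, and 0.496 and 0 in WSB. After TM the founder libraries read 5.94, 11.8 and 9.13 in 129, 17.8, 16.7 and 10.6 in A, 8.49 and 10.7 in B6, 6.81 and 9.76 in CAST, 11.7, 12.3 and 9.27 in NOD, 12.5, 14.6 and 6.30 in NZO, 14.7, 15.8 and 12.04 in PWK, and 10.7, 11.3 and 11.6 in WSB. Both 129 controls were above all other founder controls, and no founder TM library was as low as a control. Counts behind the controls were few, 0 to 20 reads per founder library, against 57 to 216 after TM, so a control level has a wide counting error, and the 0 in WSB allows up to 3 reads, a scaled signal of 0.441.
The log2 change of Derl3 was 5.53 ± 0.61 in WSB, where 1 control library had 0 reads and the fold depends on the added 0.1, then 4.67 ± 0.29 in A, 4.45 ± 0.31 in CAST, 4.35 ± 0.20 in PWK, 4.00 ± 0.28 in B6 and 3.95 ± 0.28 in NOD. In NZO it was 3.81 ± 0.39 (adjusted p of limma 0.0132) and in 129 2.81 ± 0.32 (0.0107), which missed the threshold.

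In the crosses Derl3 controls read 0.321, 0.342 and 0.284 in x129, 0.116 and 0.402 in xCAST, 0.585, 0.480 and 0.541 in xNOD, 0.531, 0.316 and 0.641 in xNZO, and 0.726, 1.03 and 1.25 in xWSB. The TM libraries read 9.22, 11.1 and 7.21 in x129, 8.30, 6.45 and 4.98 in xCAST, 8.86 and 4.86 in xNOD, 14.5, 10.6 and 14.3 in xNZO, and 2.14, 1.30 and 1.28 in xWSB. All 3 xWSB controls were above the 11 control libraries of the other crosses, and all 3 xWSB TM libraries were below the other 11 TM libraries. Derl3 rose by log2 4.46 ± 0.22 in x129, 4.31 ± 0.37 in xCAST, 3.39 ± 0.32 in xNOD and 4.50 ± 0.28 in xNZO, whereas the change in xWSB was 0.59 ± 0.36 (1.51 fold, adjusted p of limma 0.552). The xWSB controls held 32 reads of Derl3 in all and its TM libraries 73. In the same xWSB libraries TM raised Hspa5 by log2 2.74 ± 0.18, Ddit3 by 3.18 ± 0.24, Herpud1 by 3.91 ± 0.19 and Syvn1 by 1.88 ± 0.17. The other crosses gave 2.79 to 3.14, 3.67 to 4.16, 4.05 to 4.40 and 1.84 to 2.14 for these genes. xWSB was thus the lowest cross for Hspa5, Ddit3 and Herpud1, for Hspa5 by less than its SE. Among the other members it was the lowest cross for Derl1 (0.52) and Derl2 (0.16). It was not the lowest for Syvn1, Sel1l (1.19 against 0.99 to 1.75), Edem1 (1.03 against 0.81 to 1.19), Edem2, Edem3 or Os9. Whether xWSB responded less in general was not tested. Both parents had Derl3 TM libraries well above those of xWSB, 8.49 and 10.7 in B6 and 10.7 to 11.6 in WSB, although founder and F1 tables were normalized separately.

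Per kb of exon, Derl1 was the most abundant derlin in founders, at 34.4 to 40.3 in control means, Derl2 stood at 1.51 to 2.34 and Derl3 at 0.125 to 0.576. The median ratio of Derl1 to Derl3 over the 8 strains was 141 in controls (60.7 to 323) and 11.4 after TM (8.86 to 13.4). The ratio of Derl3 to Derl2 went from a median of 0.141 (0.0729 to 0.294) to 1.69 (1.16 to 2.21). By group means per kb the order of the 2 derlins was thus reversed in every founder strain, with 129 TM 1 the single founder TM library in which Derl3 (2.98 per kb) stayed below Derl2 (4.06). The order depends on the division by exon length, since the scaled signal of Derl2 after TM, 22.8 to 31.3 in group means, was above that of Derl3, 8.29 to 15.03. Exon length here covers all annotated exons of a gene, 8049 bp for Derl2 and 1993 bp for Derl3. The lengths of the transcripts present in these cells were not measured. In the crosses the same ratio after TM was 0.505 to 2.88 with a median of 1.43, and the lowest value is that of xWSB.

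The EDEM family trims mannose from the glycans of misfolded proteins. Edem1 (ENSMUSG00000030104, chr6:108828641-108859356, plus strand) was the member of the family that was induced. Its control means were 85.4 to 115 and its TM means 176 to 234 in founders, with no overlap within any genotype, and it rose by log2 0.81 to 1.19 in 9 genotypes, for example by 1.04 ± 0.08 in B6 and 1.19 ± 0.09 in x129. In the 4 genotypes that missed the limma threshold the change was 0.77 ± 0.14 in 129 (adjusted p 0.0405), 1.01 ± 0.20 in A (0.0602), 1.07 ± 0.12 in NZO (0.0169) and 1.03 ± 0.17 in xWSB (0.0462).

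Edem2 (ENSMUSG00000038312, chr2:155701677-155729475, minus strand), which carries out the first mannose removal, was higher on average after TM in 13 of 13 genotypes and passed the test in none. The log2 change was 0.07 ± 0.13 in CAST to 0.39 ± 0.17 in WSB, with adjusted p-values of limma from 0.0962 to 0.894.

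Edem3 (ENSMUSG00000043019, chr1:151755371-151822051, plus strand), a further mannosidase of the family, had the widest spread between replicates of the 10 genes. The founder controls read 30.7 and 41.4 in 129, 33.7, 45.4 and 50.01 in A, 46.0 and 39.9 in B6, 37.3 and 51.1 in CAST, 18.9 and 44.6 in NOD, 49.0 and 46.7 in NZO, 51.4, 61.4 and 64.8 in PWK, and 52.4 and 57.6 in WSB. After TM they read 11.6, 16.5 and 43.5 in 129, 56.3, 5.85 and 48.3 in A, 43.4 and 35.3 in B6, 43.4 and 45.5 in CAST, 35.8, 37.6 and 36.7 in NOD, 50.4, 59.6 and 38.2 in NZO, 27.7, 49.4 and 58.8 in PWK, and 21.6, 35.8 and 24.2 in WSB. WSB was the one founder whose TM libraries were all below its controls. Edem3 fell in WSB by 1.05 ± 0.22 on the log2 scale (adjusted p of limma 0.00953). The WSB TM libraries also had lower values of the length index described below (−0.32, −0.15 and −0.44) than the WSB controls (0.04 and 0.25), and with the trend over gene length removed the change was −0.96 ± 0.21 (adjusted p 0.0137), which did not pass. The adjusted p in the other founders was 0.119 to 0.970. The log2 change was −1.84 ± 0.76 in xNOD, from controls of 22.1, 30.9 and 32.0 and TM libraries of 2.75 and 21.6, and did not pass the test (adjusted p 0.108).

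Os9 (ENSMUSG00000040462, chr10:127095650-127121131, minus strand), the lectin that reads the trimmed glycan, changed in no genotype by the test, with log2 changes of −0.05 ± 0.10 in NOD to 0.33 ± 0.20 in xWSB and adjusted p-values of 0.113 to 0.946 by limma. Per kb of exon it stood above Syvn1 in founder controls, with a median ratio of 2.47 (2.13 to 2.85), and below it after TM, with a median of 0.605 (0.474 to 0.801). For Edem1 against Edem2 the median ratio was 2.37 in controls and 4.12 after TM, and for Edem1 against Edem3 it was 2.44 and 5.79. Herpud1 against Syvn1 went from a median of 1.43 (0.968 to 1.83) to 6.35 (5.74 to 7.97). The control ratio depends on the division by exon length. By scaled signal, the control mean of Herpud1 was below that of Syvn1 in every founder strain.

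**Figure D3:**
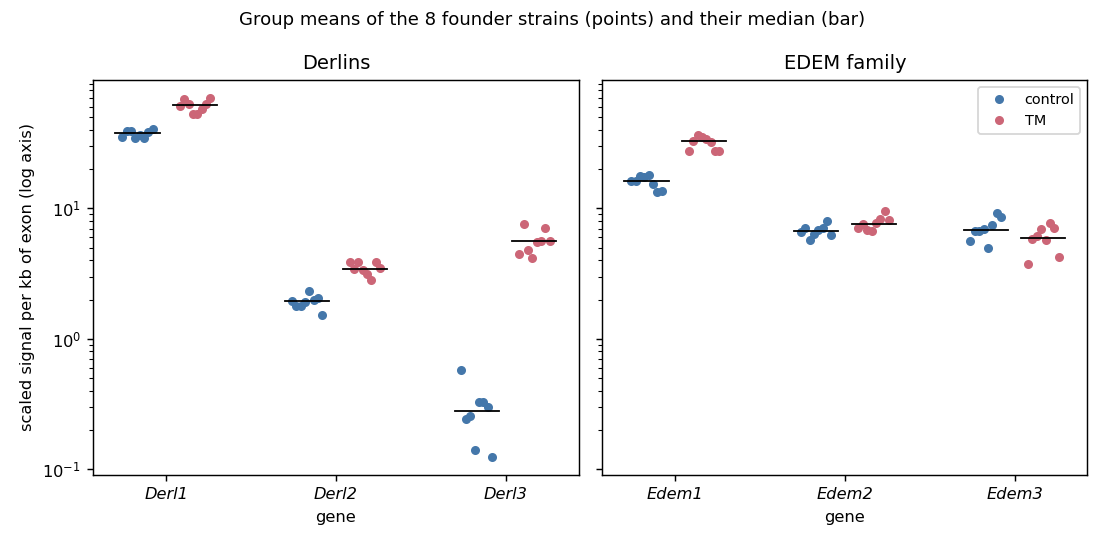
Scaled signal per kb of exon (vertical log axis) of the 3 derlins and the 3 EDEM genes (horizontal axis), as group means of the 8 founder strains (points, control and TM in different colours) with their median (bar). After TM the Derl3 points move above those of Derl2, an order that depends on the division by exon length, and Edem1 moves away from Edem2 and Edem3.

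Some libraries differed in how reads were spread over long and short genes, and this touched the members with long transcripts. For each library a length index was taken as the median log2 deviation from a gene's mean over all libraries of the set, for genes with at least 6000 bp of exon, minus that for genes with under 2000 bp, over genes with a mean of at least 2. It ran from −1.02 to 0.57 in founders and from −0.85 to 0.41 in crosses. Its median was 0.03 in controls and 0.09 after TM in founders, and 0.05 in both groups of the crosses. The index was below −0.5 in 5 libraries, 129 TM 1, A control 1, A TM 2, xNOD TM 1 and xWSB control 1, in which Edem3 read 11.6, 33.7, 5.85, 2.75 and 11.5. Each of these was the lowest Edem3 value of its group. Within groups, Pearson's r of the log2 level with the index, over 40 founder and 28 F1 libraries that share their normalization within a set, was 0.95 and 0.96 for Sel1l (8555 bp of exon), 0.90 and 0.80 for Edem3 (6381 bp) and 0.55 and 0.74 for Edem1 (6453 bp). It was −0.50 and −0.62 for Derl1 (3328 bp), −0.68 and −0.66 for Edem2 (3463 bp), and 0.03 and 0.26 for Derl3 (1993 bp). Derl2 has 8049 bp of exon and its r was 0.07 and −0.35.
With the trend over gene length taken out of each library, an alternative chosen after seeing the data, Sel1l was induced in 13 genotypes, Edem1 in 11, Derl1 in 8 and Derl3 in 10, and the fall of Edem3 in WSB no longer passed (adjusted p of limma 0.0137). Without the low-index libraries, also chosen afterwards, Sel1l in A rose by log2 1.78 (adjusted p of limma 0.00183). In 129 it rose by 1.30 and did not pass (0.0312). The Edem3 change went from −0.75 to 0.13 in A, from −0.81 to −0.41 in 129 and from −1.84 to −0.37 in xNOD. In xWSB the values moved the other way, Sel1l from 1.19 to 0.98 (0.0651) and Edem3 from −0.21 to −0.76. The index itself was not tested against any cause.

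**Figure D4:**
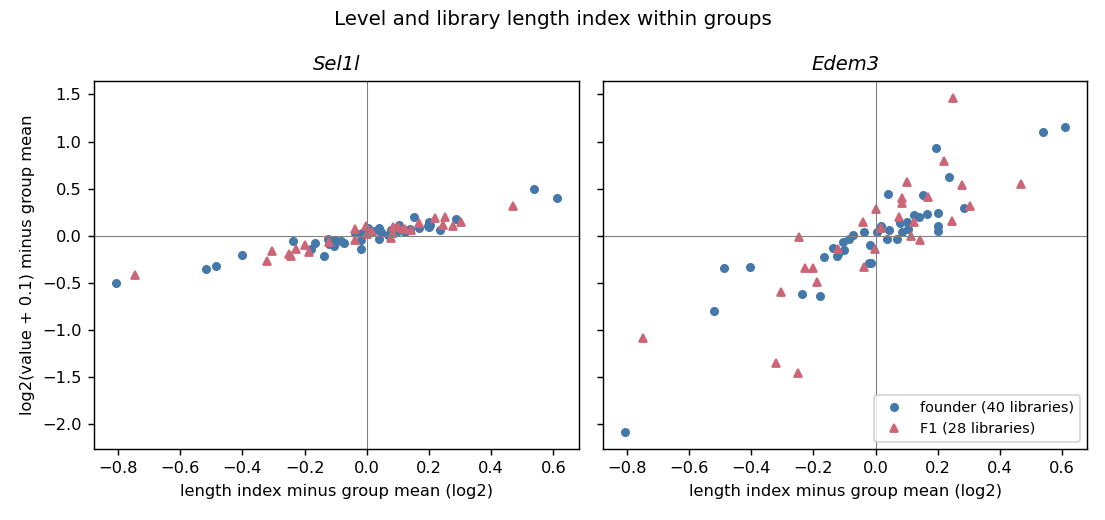
Deviation of log2(value + 0.1) from the group mean (vertical axis) against the deviation of the library's length index (horizontal axis, log2) for Sel1l and Edem3, with 40 founder (circles) and 28 F1 (triangles) libraries. The points of both genes rise with the index, with r of 0.95 and 0.96 for Sel1l and of 0.90 and 0.80 for Edem3.

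Genetic background was the second question of the design: whether the ERAD response or its control level differs between strains. In the founders the strain by treatment interaction, fitted by limma over all 40 libraries, called 0 of 10 members and 0.174% of all genes (23 of 13197). Herpud1 and Derl3 had unadjusted p-values below 0.05, with adjusted p of 0.238 and 0.678, and edgeR on recovered reads also called 0 members. Without WSB control 2, which leaves the control with 0 reads as the only one, the interaction of Derl3 had an adjusted p of 0.00199. A test after the study's analysis of variance, here a moderated F of limma over all genes on log2(value + 0.1), which divides each of the 22 TM libraries by its strain's median control and so leaves out the error of the controls, called Derl3 (adjusted p of limma 0.00194) and 2.9% of all genes (383 of 13197). With 1 in place of 0.1 added to each value this became 0.0449. Herpud1 stood just outside the threshold at 0.0105. By the same F test it passed with 1 added (0.00929), with the length trend removed (0.000977) and without the low-index libraries (0.00244). It did not pass with a mean value of at least 2 (0.0135), scaling by the median of ratios (0.0116) or no trend in the prior variance (0.0168).

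In the crosses the interaction called Derl3 alone among the members (adjusted p of limma 6.58e-05), with 0.0547% of all genes called (7 of 12803). The adjusted p stayed between 4.06e-05 and 0.000578 when any 1 of the 28 libraries was left out, and edgeR on recovered reads gave 0.000329. With the replicate number as a block it was 0.0154, which no longer passed. Sel1l and Herpud1 reached an unadjusted p below 0.05 and no more.

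Control levels differed by background for 2 of 10 members in each set, no larger a share than over all genes. In founder controls 2 of 10 members differed between strains, against 35.8% of all genes (4721 of 13197): Herpud1 (adjusted p of limma 8e-05), lowest in NZO and highest in PWK with a 1.69 fold range of means, and Sel1l (0.00219), lowest in NOD and highest in PWK with a 1.52 fold range. Between neighbours in the Herpud1 order NZO, 129, CAST, NOD, A, WSB, B6, PWK, 4 of 7 pairs had overlapping libraries. In F1 controls 2 of 10 differed, against 21.4% of all genes (2736 of 12803): Edem1 (0.000977), which was lowest in xWSB at 48.8, 56.3 and 64.5, and Os9 (0.00452), which was lowest in xCAST at 85.7 and 80.5 and highest in xWSB at 157, 126 and 119. All xWSB controls of Edem1 were below every control library of the other crosses.

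Each cross was set beside its parents, with no test because B6 is a parent of all 5 and the tables were normalized apart. Of 50 pairs of member and cross, the log2 change lay between those of the parents in 15, above both in 13 and below both in 22. The same counts were not made over all genes. Counts given here are therefore not read as particular to the members or to any cross. The median distance outside the parental range was small, 0.15 on the log2 scale. xWSB had 7 of 10 members below both parents, of which Derl3 lay 3.40 below the nearer parent and Derl2 0.94 below. The other large distance was Edem3 in xNOD, 1.70 below, which rests on the low-index library described above. For Derl3 the crosses x129 and xNZO were above both parents, by 0.47 and 0.50, and xNOD 0.55 below.

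The rest of the ERAD pathway was read from 4 lists of genes. Of 14 measured ER mannosidases, lectins and chaperones that feed substrates in, 5 were induced in at least 1 genotype, as were 10.5% of all genes (1221 of 11664), and 0 were lowered, against 10.9% of all genes (1272 of 11664). Sdf2l1, a component of the BiP chaperone complex, rose in 13 of 13 genotypes with a mean log2 change of 3.15 over founders, and Dnajb9, the BiP co-chaperone ERdj4, in 11 with a mean of 2.88. Calr and Canx, the calnexin-cycle lectins, passed in 7 and 4 genotypes, and Txndc11, an EDEM-binding oxidoreductase, in 8. At the other end Man1c1, a mannosidase of the Golgi, had a mean of −0.50 and passed in 0.

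Among 13 further membrane proteins of the ERAD complexes, 3 were induced in at least 1 genotype. Selenok and Selenos, selenoproteins that bind derlins and p97, passed in 6 genotypes each, with means of 0.70 and 0.69. Rhbdd1, a rhomboid protease, passed in 1, and Tmub1 had the lowest mean, −0.42. The share of the list, 3 of 13, is to be read against the 10.5% of all genes (1221 of 11664) induced in at least 1 genotype. Of 16 ubiquitin-conjugating enzymes, ligases and their helpers apart from Syvn1, Trim13 was induced in 2 genotypes (mean 0.58) and Rnf103 in 1 (0.38), while Rnf145 was lowered in 2 (−0.59) and Fam8a1 in 1. In at least 1 genotype 2 of 16 were thus induced and 2 of 16 lowered, near the 10.5% and 10.9% of all genes.

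Downstream, of 19 genes for p97, deglycosylation and shuttling to the proteasome, Yod1, a deubiquitinase that works with p97, was induced in 2 genotypes with a mean of 0.63. Ngly1, the enzyme that strips glycans from exported proteins, had a mean of 0.51 and passed in 0. Bag6 was lowered in 1. In at least 1 genotype 1 of 19 was thus induced and 1 of 19 lowered, against 10.5% and 10.9% of all genes. The list medians of the founder mean were 0.30 for mannosidases, lectins and chaperones, 0.06 for membrane proteins, 0.14 for enzymes and −0.01 for p97 and shuttle factors (18 of which were tested in all founders), against 0.91 for the 10 members and −0.03 over 11918 genes.

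**Figure D5:**
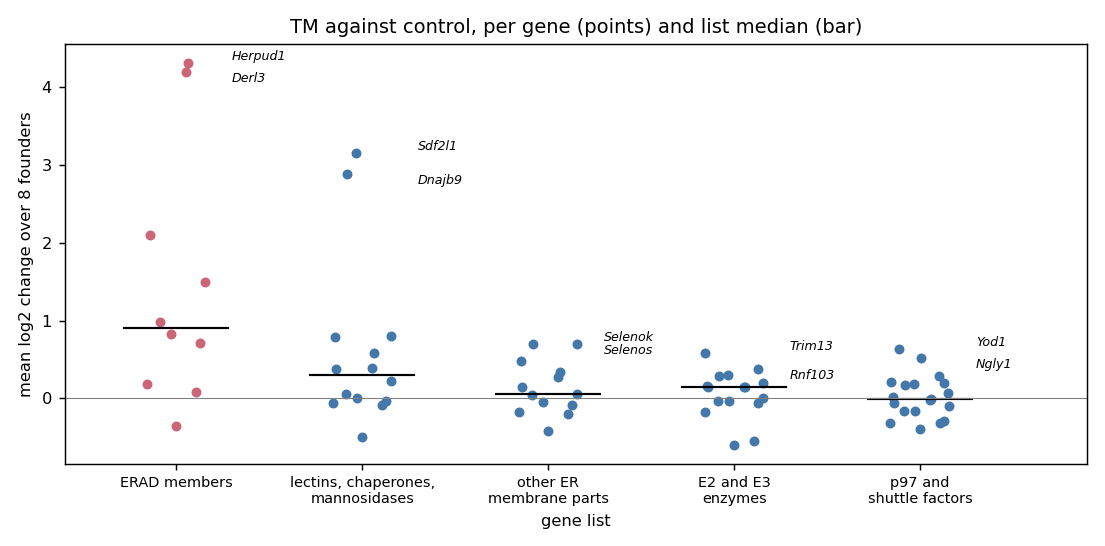
Mean log2 change with TM over the 8 founder strains (vertical axis) of each gene (points) in the 10 ERAD members and the 4 lists of related genes (horizontal axis), with the list median (bar). The members have the highest median, 0.91, and Sdf2l1 and Dnajb9 are the highest of the related genes, at 3.15 and 2.88.

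The genes whose log2(TM/control) went most with that of a member over the 22 founder TM libraries were taken from 13192 genes. Libraries of a strain share their control, and no p is given. For Herpud1 these were Alkbh1 (Pearson's r 0.83), Arl14ep (0.78) and Rpl9-ps6 (0.75), with r of 0.22, 0.56 and 0.12 over the 14 F1 TM libraries. Syvn1 went with Rnf26 (0.85, and 0.49 in F1), Txndc11 (0.77 and 0.77) and Ccdc141 (0.76 and −0.37). Those of Sel1l were Usp6nl (0.90 and 0.88), Etv5 (0.90 and 0.67) and Kctd20 (0.88 and 0.96), and Sel1l is the member that followed the length index most closely. For Derl3 they were Erfe (0.85 and 0.49), Dpf2 (0.83 and 0.33) and Exosc10 (0.83 and 0.47). Only the Sel1l neighbours and Txndc11 kept an r above 0.60 in the crosses.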

How the data were processed

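RNA sequencing of 68 libraries was read from 13 tables, 1 per genotype. The authors trimmed reads (Trimmomatic), aligned them (TopHat 1.4.1, as listed in the submitters' processing notes) and deposited a scaled signal per gene. The deposited values are called FPKM but are not divided by length. They are whole reads divided by TMM-scaled library size: in 66 of 68 libraries reads were recovered (100% of values whole within 0.02 reads; not PWK TM 2 and WSB TM 1). The planned FPKM test, limma on log2(value + 0.1), was kept. In each F1 table, 3 lines name no gene (15.5% to 24.1% of reads) and were left out, with 0 columns lacking a sample, and 13197 of 13378 identifiers were named. The founder and F1 sets were normalized separately.

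Each genotype was fitted alone with limma 3.58.1 (R 4.3.3, eBayes with trend, two-sided, Benjamini-Hochberg over all genes reaching 0.5 in at least 2 libraries). Strain terms were moderated F tests over a set, called at an adjusted p below 0.01. Alternatives used edgeR 4.0.16 on recovered reads, other pseudocounts, filters and scalings, and each library left out. In xWSB the 3 same-numbered control and TM libraries deviated together (r 0.130, 0.183 and 0.272). The xWSB values in the Results are from the unpaired fit, and a fit with the numbers as pairs was an alternative. In no other genotype with 3 pairs did all exceed 0.1, but the NZO pairs, replicates 2 and 3, did so too (r 0.233 and 0.255). Scripts were tested on simulated data. The members and gene lists were chosen with earlier results of these data known. Named genes are all members, Hspa5 and Ddit3 as checks, from each list the 2 highest and 1 lowest founder means and any gene induced in all 13 genotypes, and the 3 genes most like 4 members; 1 gene that this rule names is not reported here. Other list genes called in some genotype (Calr, Canx, Txndc11, Rhbdd1, Fam8a1, Bag6) were named after their values were seen. Lengths and positions came from GENCODE M21 (GRCm38) and promoters from RefSeq (GRCm38.p6). Intervals of counting error were not computed, and read numbers stand beside the low values.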

Additional observations from a re-analysis of the deposited data

Results flagged for a closer look

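The change of Derl3 with TM differed between the F1 crosses (adjusted p of limma's interaction 6.58e-05), log2 0.59 in xWSB against 3.39 to 4.50 in the other 4. With the replicate number as a block this adjusted p was 0.0154 and no longer passed. The change of Derl3 relative to the median control of the strain also differed between founder strains (adjusted p of limma 0.00194), where fitted log2 changes ran from 2.81 in 129 to 5.53 in WSB. The full founder model, which counts the error of the controls, gave 0.678 for the same gene.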

How the results depend on the processing

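No member's log2 change that passed the test turned direction under any alternative. Leaving out 1 library at a time left 599 of 678 values on the same side of the threshold, with 59 no longer passing and 20 newly passing. Counts of induced members then ran from 0 to 6 in 129, 2 to 3 in A, 7 to 7 in B6, 4 to 7 in CAST, 4 to 6 in NOD, 0 to 7 in NZO, 6 to 7 in PWK, 4 to 7 in WSB, 5 to 7 in x129, 4 to 7 in xCAST, 2 to 7 in xNOD, 4 to 6 in xNZO and 1 to 2 in xWSB. The moves over 1.5 times came without 129 control 2 or 3 (1), TM 2 (0) or TM 3 (6), NZO control 2 or 3 (0), TM 1 or 2 (1) or TM 3 (7), WSB control 2, TM 1 or TM 2 (4), any xNOD control (2), and xWSB control 2 or 3 or TM 2 (1). Across genotypes the interaction called 1 member in F1 each time and 0 to 1 in founders, the strain effect on log2(TM/control) 1 to 2 (2 without 129 control 2, 129 TM 3, A control 2 or 3, A TM 2 or 3, B6 control 2, CAST control 1 or 3, NOD control 3, NZO control 3, PWK control 2 or WSB control 3), and the control level 2 to 5 in founders (5 without A control 1) and 1 to 3 in F1 (3 without xWSB control 3, 1 without xCAST control 2 or 3, xNOD control 2 or xWSB control 2).

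Without a trend in the prior variance the induced members were 1 in 129, 1 in B6, 3 in CAST, 1 in NZO, 1 in WSB, 2 in xNOD and 1 in xWSB, and 1 member had an F1 control difference. One fit over a whole set gave 6 in 129, 6 in A, 6 in NZO and 4 in xWSB. edgeR, without the 2 libraries whose reads were not recovered, gave 1 in 129 and 4 in WSB, and a mean value of at least 2 gave 1 in 129. At an adjusted p below 0.05, 4 members differed in founder controls, 4 in F1 controls and 2 in log2(TM/control). With the length trend removed, chosen after seeing the data, there were 4 in NZO, 4 in xWSB, 4 and 4 for founder and F1 controls and 2 for log2(TM/control), and without the low-index libraries, chosen likewise, 5 for founder controls and 2 for log2(TM/control). The causes of these moves were not tested.

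With the replicate number as a block, 7 members were induced in 129, 4 in NZO and 4 in WSB, and 0 had an F1 interaction (Derl3 adjusted p 0.0154). Of 29 same-numbered pairs 9 correlated above 0.1 (−0.57 to 0.37, median 0.01). All pairs of a genotype with 3 did so in xWSB only, where the block changed no member's call (Derl3 adjusted p 0.493). B6 and CAST could not be fitted with a block. All genes induced per genotype numbered 23 to 810 (median 309), 10 to 625 (median 28) without the trend, 224 to 688 (median 434) in one fit, 21 to 717 (median 187) with edgeR, and 10 to 823 (median 269) with the block. Depth limits Derl3, whose control libraries hold 0 to 20 reads.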
